A study of Rattus norvegicus with 6 samples.

Results

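The junction genes of Schwann cells described here were 10 genes chosen by name, namely the claudins Cldn19, Cldn1 and Cldn5, the connexins Gjb1, Gja1 and Gjc3, the tight junction scaffold Tjp1, the adhesion molecule Cadm4 and the genes of the node of Ranvier Nfasc and Gldn. Their rows were taken by symbol from 6 count files of 17327 genes each. 9 of the 10 had a row and Gjc3 had none. At least 1 count was found for 8 of them, and 6 of them, Cldn19, Gjb1, Gja1, Tjp1, Cadm4 and Gldn, passed the filter on low counts and were among the 9740 genes tested. The RNA came from primary Schwann cells, the glia of peripheral nerves, which were grown from the sciatic nerve of adult Wistar rats and expanded in a medium with a neuregulin and forskolin. Confluent cells of both groups were starved overnight in a medium with little serum that still held forskolin, a compound that raises cAMP. They then received for 6 h either 10 nM soluble recombinant NRG1, a growth factor that binds the ErbB receptors of Schwann cells, or the same volume of its buffer (mock), which is phosphate-buffered saline with albumin. Each of 3 independent cultures gave 1 mock and 1 NRG1 sample. The protocols name no neurons in these cultures, and transcripts were measured, not junctions.

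In a myelinated fibre the Schwann cell seals its own membrane layers with tight junctions, in which claudins form the strands and Tjp1 (ZO-1) ties them to actin. Gap junctions of connexins join the layers of a Schwann cell and give small molecules a short way through the myelin. Cadm4 and the neurofascin of the glial side hold the cell to the axon along the internode and at the paranode, and gliomedin, made from Gldn, is released by Schwann cells at the node and gathers axonal sodium channels there.

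Counts on genes ranged from 6821590 to 15475018 per sample, and a floor of 3 counts was 0.194 to 0.444 CPM, the unit of level used below, in which counts are divided by library size. Of 10 markers of Schwann cells 9 had a row and all 9 had counts, although Gap43 was at no more than 0.323 CPM. Both samples of culture 1 stood apart from the other 4. The fibroblast and mural cell markers Dcn, Lum, Thy1, Rgs5, Kcnj8 and Abcc9 together had 14864 counts in mock sample 1 and 12466 in NRG1 sample 1. They are those of the 8 fibroblast and 7 mural markers that had 0 counts in each sample of cultures 2 and 3. Other markers of these lists differed. In cultures 2 and 3 Col1a1 was at 13413 to 21494 CPM, Col3a1 at 170 to 838 CPM and Pdgfrb at 223 to 402 CPM. Col1a2 had 0 counts in both samples of culture 1. Pdgfra, a receptor of fibroblasts, was at 870 and 827 CPM in culture 1 and at no more than 1.61 CPM elsewhere, while Sox10 was at 396 and 477 CPM in culture 1 and at 1063 to 1258 CPM elsewhere. The change of each junction gene is therefore also given without culture 1. In such bulk samples fewer cells of a type and less RNA per cell cannot be told apart.

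Among the 6 junction genes tested, Gldn rose and Cldn19 fell after NRG1, and the other 4 did not pass the limit of an adjusted p of 0.01 in edgeR's quasi-likelihood test with the culture as a block. Of all 9740 genes, 6.31% were called higher and 5.51% lower, and the 1 higher and 1 lower of 6 junction genes are to be read beside these shares. With a further demand for an absolute log2 fold change over 1, Cldn19 alone of the 6 was left, where 1.91% of all genes were past that limit downward and 1.56% upward. The median log2 fold change of the 6 was 0.02, against -0.03 over all genes.

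**Figure D1:**
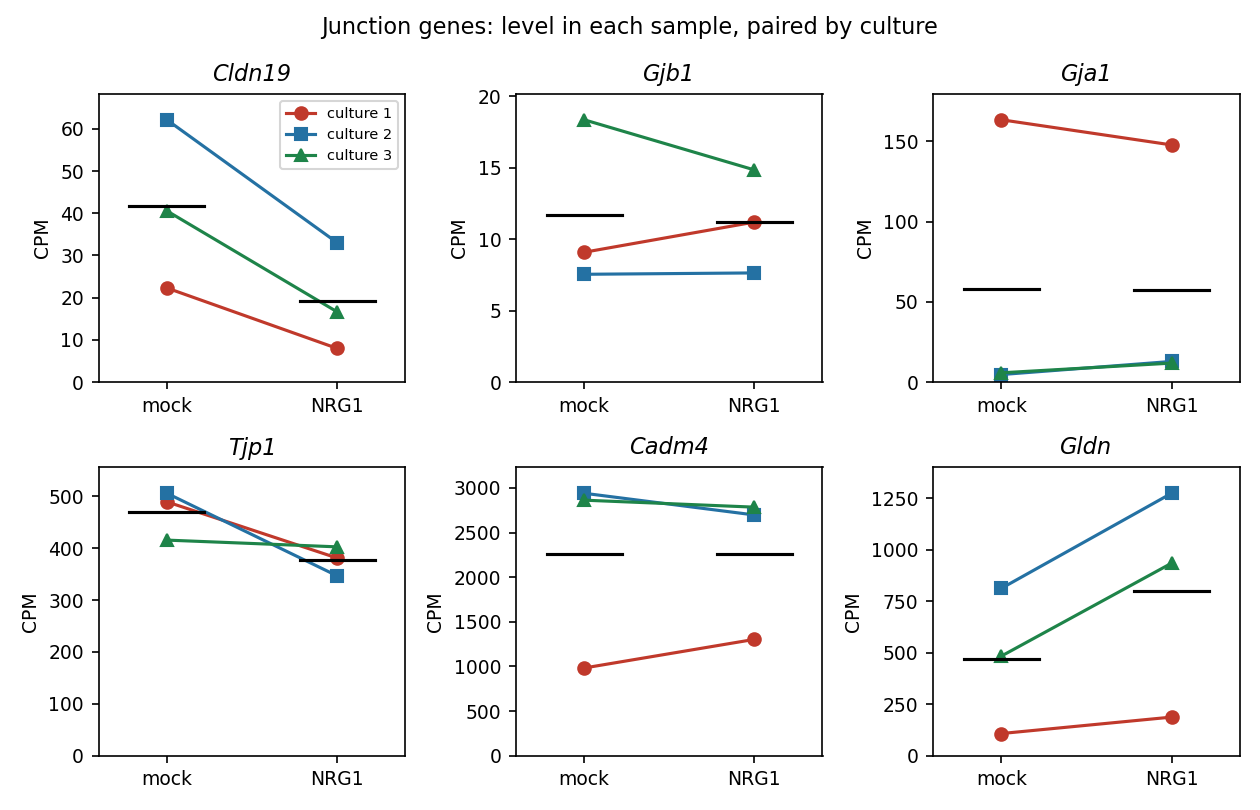
Level in CPM (vertical axes, from 0) of the 6 tested junction genes in mock and NRG1 samples, with a line joining the samples of each culture and a black bar at the mean of each group. Cldn19 drops and Gldn climbs along all 3 lines, while for Gja1 the line of culture 1, near 150 CPM, lies far above those of cultures 2 and 3.

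Cldn19 encodes the claudin of Schwann cell tight junctions, whose loss in mice removes these junctions and impairs nerve conduction. It was counted 167, 420 and 515 times in mock samples 1, 2 and 3 and 60, 294 and 258 times in the NRG1 samples of the same cultures. These counts correspond to 22.3, 62.1 and 40.6 CPM in mock cells and to 8.0, 33.0 and 16.7 CPM after NRG1. The NRG1 sample was the lower one in every culture, but the groups overlapped, since the mock level differed 2.79-fold between cultures and the NRG1 sample of culture 2 exceeded the mock sample of culture 1. Across the 3 pairs Cldn19 fell by 1.19 on the log2 scale (standard error, SE, 0.15, 95% confidence interval -1.51 to -0.87, edgeR adjusted p = 8.5e-05), which is 2.29-fold lower. Within the cultures the NRG1 level was 0.358, 0.532 and 0.410 times the mock level, and the 95% counting interval of each of these ratios lay below 1, the highest upper end being 0.619 in culture 2. Without culture 1 the log2 fold change of Cldn19 was -1.09 with an adjusted p of 1.3e-06 in edgeR's quasi-likelihood test. Among the Schwann cell markers S100b, Mbp and Cdh19 fell as well, with Cdh19 at -1.10 on the log2 scale, while Sox10 had a log2 fold change of 0.11 (adjusted p = 0.58). Whether the fall of these markers bears on Cldn19 was not tested. All counting intervals here cover counting error only, since reads without molecular identifiers are not independent molecules.

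The letters upstream of Cldn19, Gldn and Gja1 are shown because the first pair are the genes that passed the test, in opposite directions, and because Gja1 differed most between cultures. They are the 150 bases before the start site in RefSeq's promoter table for the rat build GRCr8, which is not the build that the counts were made on (rn5), and are written 5′ to 3′ on the strand of the gene with the letters of any searched motif in capitals. All 3 genes lie on the plus strand.
Cldn19, chr5:138148425-138148574: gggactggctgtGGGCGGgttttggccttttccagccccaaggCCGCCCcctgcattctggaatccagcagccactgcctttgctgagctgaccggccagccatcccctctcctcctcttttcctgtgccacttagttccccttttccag
Gldn, chr8:63575120-63575269: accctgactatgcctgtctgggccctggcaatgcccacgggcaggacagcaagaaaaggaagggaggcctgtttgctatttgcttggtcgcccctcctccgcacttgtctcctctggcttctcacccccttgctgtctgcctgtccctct
Gja1, chr20:36302414-36302563: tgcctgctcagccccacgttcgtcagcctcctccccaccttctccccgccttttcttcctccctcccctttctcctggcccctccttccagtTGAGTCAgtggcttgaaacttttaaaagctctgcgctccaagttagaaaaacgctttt
The start site used for Cldn19 lies 341 bases inside the outermost start of the gene in RefSeq, that for Gja1 lies 74 bases inside it, and that for Gldn coincides with it. The motifs were sought on both strands of windows of 300 bases around the start sites of 33469 promoters. Cldn19 held GGGCGG, the letters bound by SP factors, 3 times, at -190, -138 and -107 from the start site, of which the last pair is printed above, that at -107 as its complement CCGCCC. These letters were found in 33.1% of all promoters. Gja1 held the AP-1 letters TGANTCA at -58, found in 7.33% of promoters. Gldn held none of the searched letters, and neither did Cldn19 or Gja1 hold any others, which were those of Egr (GCGTGGGCG and GCGGGGGCG, in 0.544% and 2.73% of promoters), Sox (ACAAAG, 18.8%), ETS (CCGGAAGT, 3.81%), CRE (TGACGTCA, 1.83%), FoxO (GTAAACA, 3.78%), TEAD (GGAATG, 14.2%) and the TATA box (TATAAA, 14.2%). A match or its absence describes the letters of this window only.

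Cldn1 and Cldn5, claudins of the perineurium and of endothelium, were at or near 0. Cldn1 had no count in any mock sample or in NRG1 sample 1, 2 counts in NRG1 sample 2 and 9 counts in NRG1 sample 3. The 11 counts over the NRG1 group amount to 0.345 CPM (exact Poisson 95% interval 0.172 to 0.617). For the 0 counts over the mock group the same interval reaches up to 0.137 CPM, where the floor of 3 counts is 0.111 CPM. A fit without the filter gave an adjusted p of 0.086. Both samples of culture 1 had 0 counts, and most of the counts came from culture 3. Cldn5 had 0 counts in all 6 samples, for which the interval reaches up to 0.137 CPM over the mock and 0.116 CPM over the NRG1 group. Of the endothelial markers Pecam1, Cdh5, Emcn and Sox17 were at 0 in every sample as well, and the summed level of the 10 endothelial markers was 15.0 to 20.6 CPM. Tek, at 5.87 to 14.8 CPM, and Egfl7, at 3.31 to 10.0 CPM, passed the filter and were not called. Kdr, Flt1, Tie1 and Vwf had counts but did not pass the filter. Of these Flt1 was higher after NRG1 in each culture, reaching 2.65 CPM. Of 4 markers of perineurial cells, which express Cldn1 in the nerve, Lypd2 was at 0 and Moxd1 had no row. Slc2a1 rose by 0.59 on the log2 scale and Itgb4 fell by 1.44. Which cells the transcripts of Slc2a1 and Itgb4 came from was not tested, nor was any part of their changes in the counts of Cldn1.

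Tjp1, which encodes ZO-1, the scaffold under tight and adherens junctions, was at 490, 506 and 416 CPM in mock samples 1, 2 and 3 and at 381, 347 and 403 CPM in the NRG1 samples. The NRG1 sample was lower in 3 of 3 cultures and the groups did not overlap, an order that 9.94% of all tested genes showed. The log2 fold change was -0.32 (SE 0.13, 95% confidence interval -0.60 to -0.04), and its adjusted p of 0.094 missed the limit. The ratio was 0.779 in culture 1 and 0.685 in culture 2, with counting intervals below 1, and 0.969 in culture 3, with a counting interval of 0.934 to 1.01. Without culture 1 the log2 fold change was -0.29 (adjusted p = 0.28 by edgeR). Of the tested junction genes Tjp1 varied least between cultures, 1.22-fold over the mock samples. In the current RefSeq annotation its span overlaps 2 long non-coding RNAs. Whether their exons overlap those of Tjp1 was not checked. Where they do, their reads could not be separated from those of Tjp1, since the library kit does not mark strand.

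**Figure D2:**
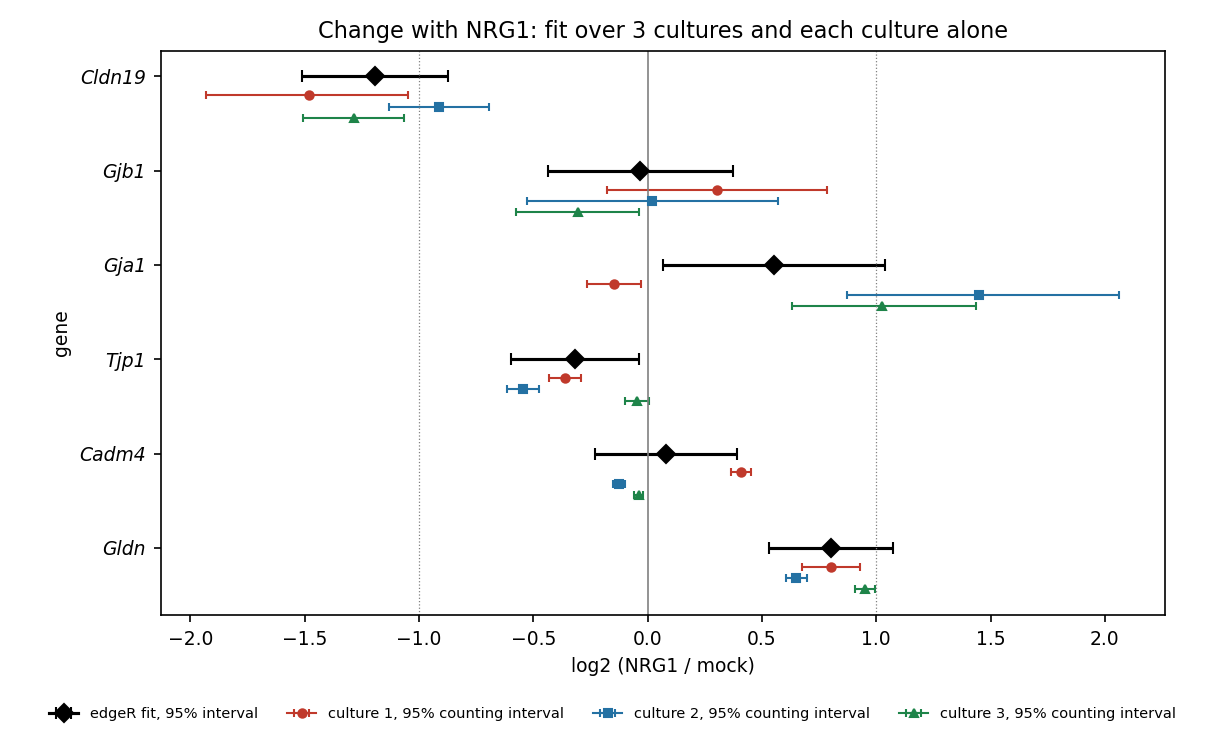
Change with NRG1 as log2 of the ratio of NRG1 to mock (horizontal axis) for the 6 tested junction genes, with the edgeR estimate over 3 cultures as a black diamond and its 95% interval, and the ratio within each culture as a coloured symbol with its 95% counting interval. Dotted lines mark a log2 ratio of -1 and 1. The symbols of Cldn19 all lie left of 0 and those of Gldn right of it, while those of Gja1 lie on both sides.

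The connexins are the subunits of gap junctions. Gjb1, which encodes Cx32, the connexin of myelinating Schwann cells whose mutations cause an X-linked neuropathy, had few counts, from 51 to 233 per sample. It was at 9.09, 7.55 and 18.4 CPM in mock samples 1, 2 and 3 and at 11.2, 7.64 and 14.8 CPM after NRG1. The order of the cultures was the same in both groups, with culture 3 the highest, and the groups overlapped. No change was detected at this depth, with a log2 fold change of -0.03 (SE 0.19, adjusted p = 0.92), and the 95% confidence interval of -0.44 to 0.37 leaves room for changes of that size in either direction. Without culture 1 the log2 fold change was -0.18 (adjusted p = 0.69).

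Gja1 encodes Cx43, a connexin that many cell types express, fibroblasts among them. Its level differed more between cultures than between mock and NRG1. Mock samples 1, 2 and 3 had 1224, 32 and 74 counts, or 163.5, 4.74 and 5.83 CPM, and the NRG1 samples had 1109, 115 and 184 counts, or 147.8, 12.9 and 11.9 CPM. Mock sample 1 was thus 34.5-fold above mock sample 2, and the groups overlapped. The direction differed between cultures, as the NRG1 level was 0.904 times the mock level in culture 1 (counting interval 0.833 to 0.981), but 2.73 times in culture 2 (1.83 to 4.18) and 2.04 times in culture 3 (1.55 to 2.71). With 1 sample per condition in each culture this difference could not be tested. Over all 3 pairs the log2 fold change of 0.55 (SE 0.23, 95% confidence interval 0.07 to 1.04) did not pass, with an adjusted p of 0.094 in edgeR's quasi-likelihood test. Without culture 1, which leaves 2 pairs, it was 1.21 with an adjusted p of 0.00017, past both limits. The summed level of the 8 fibroblast markers was also higher in culture 1, at 53449 and 57733 CPM, than elsewhere, at 13693 to 22332 CPM. Outside culture 1 this sum was almost wholly Col1a1, at 13413 to 21494 CPM, while Dcn, Lum and Thy1 were at 0. The summed level of the 7 mural markers was 3159 and 3225 CPM in culture 1 and 224 to 409 CPM elsewhere, where Pdgfrb made up 223 to 402 CPM of it. The part of these markers in the level of Gja1 was not tested.

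**Figure D3:**
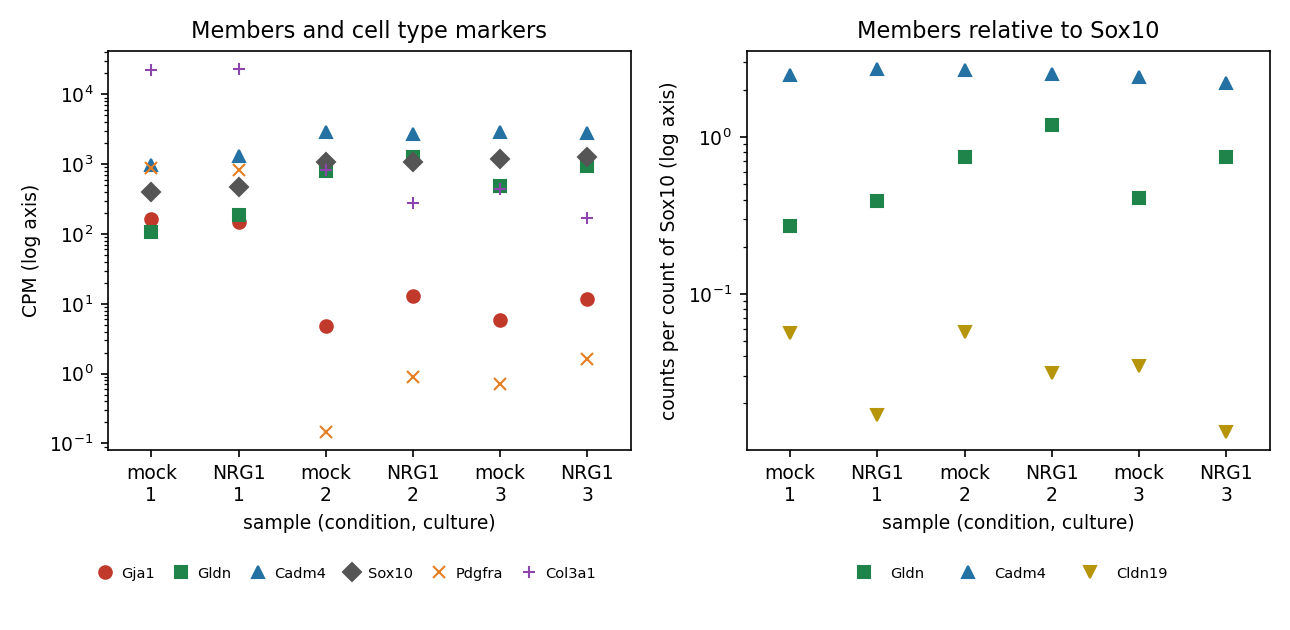
Left, level in CPM (log axis) of Gja1, Gldn and Cadm4 with the Schwann cell marker Sox10 and the fibroblast markers Pdgfra and Col3a1 in each of the 6 samples, and right, counts of Gldn, Cadm4 and Cldn19 per count of Sox10 (log axis). In culture 1 Gja1, Pdgfra and Col3a1 are high and Gldn, Cadm4 and Sox10 low, and per count of Sox10 the 6 samples of Cadm4 lie between 2.21 and 2.73. Only the samples of a given gene can be compared, since the values are not scaled to gene length.

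Cadm4 (Necl-4) is the adhesion molecule with which Schwann cells bind Cadm3 on the axon along the internode. Mock samples 1, 2 and 3 were at 982, 2940 and 2862 CPM and NRG1 samples at 1303, 2697 and 2784 CPM. Both samples of culture 1 lay below the other 4, and the groups overlapped. No change was detected over the 3 pairs, with a log2 fold change of 0.08 (SE 0.15, 95% confidence interval -0.23 to 0.39, adjusted p = 0.73 by edgeR). Without culture 1 it was -0.08 (adjusted p = 0.83). The ratio was 1.33 in culture 1, 0.917 in culture 2 and 0.973 in culture 3. With at least 7349 counts per sample, counting error was small beside the spread of these ratios between cultures. Per count of Sox10, a ratio taken after the values had been seen, Cadm4 was at 2.48, 2.69 and 2.44 in the mock samples and at 2.73, 2.54 and 2.21 in the NRG1 samples. The mock cultures then differed 1.11-fold, against 2.99-fold in CPM. The summed level of the Schwann cell markers was likewise lower in culture 1, at 3999 CPM in mock and 3245 CPM in NRG1 cells, than in the other samples, at 6955 to 9603 CPM, and its part in the level of Cadm4 was not tested.

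Gldn, the gene of gliomedin, was the junction gene that rose. It was counted 804, 5490 and 6135 times in mock samples 1, 2 and 3 and 1405, 11339 and 14481 times in the NRG1 samples. The levels were 107.4, 812 and 483 CPM in mock cells and 187, 1274 and 935 CPM after NRG1. Each NRG1 sample exceeded the mock sample of its culture, but both samples of culture 1 were below every other sample, so that the groups overlapped. The group means were 468 ± 353 and 799 ± 556 CPM (SD, n = 3), where the SD is the spread between cultures. The log2 fold change over the pairs was 0.80 (SE 0.13, 95% confidence interval 0.53 to 1.07, edgeR adjusted p = 0.00053), or 1.74-fold. Within cultures 1, 2 and 3 the ratio was 1.74, 1.57 and 1.93, and the counting intervals of cultures 2 and 3 were 1.52 to 1.62 and 1.88 to 1.99. With 1 library per condition in each culture, a difference in the size of the rise between cultures could not be tested. Without culture 1 the log2 fold change was again 0.80, with an adjusted p of 0.00028. A small nucleolar RNA gene lies within the span of Gldn in the current RefSeq annotation. Between mock cultures Gldn varied 7.56-fold, and 2.74-fold when taken per count of Sox10.

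Nfasc, which encodes neurofascin, the gliomedin-binding and paranodal adhesion molecule whose glial form Schwann cells make, was close to the floor and did not enter the test. It had 6, 3 and 9 counts in mock samples 1, 2 and 3 and 2, 0 and 6 counts in the NRG1 samples. Summed over each group these 18 and 8 counts are 0.668 CPM (exact Poisson 95% interval 0.396 to 1.06) in mock and 0.251 CPM (0.108 to 0.494) in NRG1 cells. By sample, Nfasc was at 0.802, 0.444 and 0.709 CPM in mock and at 0.267, 0 and 0.387 CPM in NRG1 cells. The NRG1 sample was lower in each culture and the groups did not overlap in CPM. This order rests on mock sample 2 at 3 counts, which is the floor, against NRG1 sample 3 at 6 counts in a larger library. Of all tested genes 9.94% showed such an order, a share that does not cover genes as rare as Nfasc. The intervals of the summed counts overlap, which is not a test of a difference. An edgeR fit without the filter gave an adjusted p of 0.27.

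The change of the 10 genes was set beside 5 lists of further junction genes, 116 names in all. Rows were found for 105 of these and 51 were tested, of which 5 rose and 3 fell, 15.7%, where 11.8% of all tested genes were called in either direction. The lists were chosen with earlier results of these data known, so the share of 15.7% is a description only. The median log2 fold change over the 51 was -0.09. Without culture 1, 9 genes of these lists were called, and without culture 2 or culture 3 there were 5.

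By list, the counts below stand beside the 6.31% of all genes called higher and the 5.51% called lower, and no list was tested as a whole. Of 16 tested genes of node and paranode proteins 4 were higher and 1 was lower, with a median log2 fold change of 0.00. Nrcam, the adhesion molecule that binds gliomedin at the node, was at 16.8, 57.9 and 53.1 CPM in mock samples 1, 2 and 3 and at 34.4, 112.6 and 100.3 CPM after NRG1. It rose in 3 of 3 cultures by 0.96 on the log2 scale (SE 0.12, edgeR adjusted p = 9.2e-05). Like Gldn it was lowest in culture 1 in both groups. Ezr and Msn encode ezrin and moesin, linkers of actin to the membrane that are found in the microvilli with which Schwann cells cover the node. Ezr stood at 124.1, 310 and 335 CPM in mock cells and at 259, 549 and 591 CPM after NRG1, a rise of 0.90 on the log2 scale (SE 0.12, adjusted p = 0.00018). Msn rose by 0.55 (SE 0.13, adjusted p = 0.0067). The scaffold gene Mpp6 rose by 0.69 (SE 0.12, adjusted p = 0.0013), from 35.0, 85.2 and 61.5 to 62.5, 120.0 and 103 CPM. Epb41l3, the gene of the cytoskeletal protein 4.1B of paranodes, fell by 0.58 (SE 0.14, adjusted p = 0.0075). Msn did not pass without culture 3 (adjusted p = 0.11), where its log2 fold change was 0.47. Epb41l3 did not pass without culture 2 or culture 3 (adjusted p of 0.024 and 0.095), with log2 fold changes of -0.48 and -0.47.

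Of 17 other tight junction proteins tested, none rose and 1 fell, with a median log2 fold change of -0.13. This was Magi3, a PDZ scaffold, at 91.0, 41.7 and 26.2 CPM in mock samples 1, 2 and 3 and at 60.7, 14.8 and 19.4 CPM after NRG1 (log2 fold change -0.80, SE 0.18, adjusted p = 0.0048). Without culture 2 its adjusted p was 0.0101 by edgeR, just over the limit, with a log2 fold change of -0.51. Of 12 internode adhesion proteins, Mag fell and Ctnnb1 rose, with a median of -0.11. Mag encodes the myelin-associated glycoprotein of the periaxonal membrane and was at 15.4, 41.9 and 16.0 CPM in mock cells and at 7.47, 15.7 and 7.94 CPM after NRG1, so that it fell by 1.17 on the log2 scale (SE 0.17, adjusted p = 0.00023). Ctnnb1, the gene of β-catenin of adherens junctions, rose by 0.56 (SE 0.12, adjusted p = 0.0052), and in each of the 3 cultures the NRG1 sample was the higher. With 2 pairs only it did not pass, with adjusted p of 0.017, 0.013 and 0.039 without cultures 1, 2 and 3, while its log2 fold change was 0.56, 0.53 and 0.62.

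None of 3 other tested claudin and claudin-like genes passed. Cldnd1 had a log2 fold change of -0.40 (adjusted p = 0.025) and Cldn12 one of 0.04 (adjusted p = 0.85). The same held for 3 other connexin and pannexin genes, where Gjc1 had a log2 fold change of 0.06 (adjusted p = 0.79) and Panx1 one of 0.03 (adjusted p = 0.89). The median was -0.40 over the claudins and 0.03 over the connexins and pannexins.

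**Figure D4:**
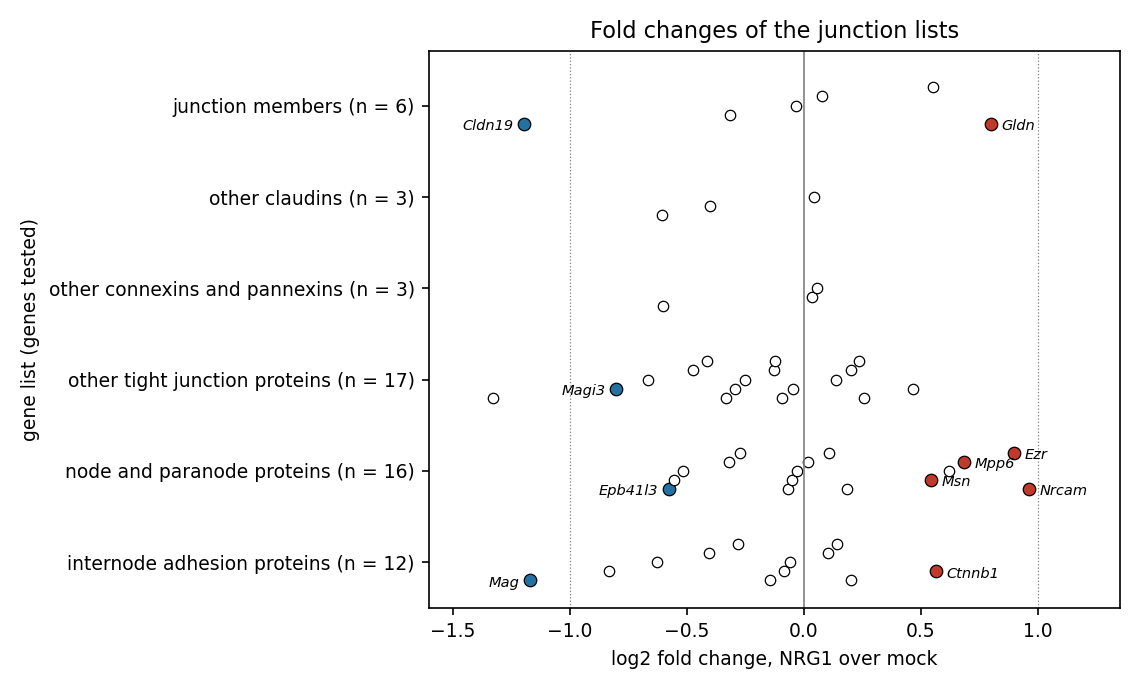
Log2 fold change of NRG1 over mock (horizontal axis) of each tested gene of the junction members and of 5 further junction lists, with n the number tested, filled blue or red where the gene was lower or higher at an adjusted p of at most 0.01. Vertical scatter within a list only separates the points, and dotted lines mark -1 and 1. Called genes lie on both sides, with Cldn19 and Mag below -1 and no called gene above 1.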

How the data were processed

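Poly(A) RNA of 6 samples of rat Schwann cells, 3 mock and 3 NRG1, was sequenced on an Illumina NextSeq after preparation with a TruSeq RNA kit. Per the labels and the study's methods, the authors aligned the reads to the rn5 build (TopHat2 2.0.10), assigned them to RefSeq genes (HTSeq) and deposited the raw counts by gene symbol. The strand setting of the counting is not given in the sources used here. Between 47.0% and 49.9% of the alignments of a file were on genes, and the summary rows for the rest (50.1% to 53.0%) were left out. The smallest library gives a floor of 0.444 CPM and the largest one of 0.194 CPM, so that small changes of rare genes could not be seen.

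Groups and culture numbers came from the sample titles. Counts were tested in edgeR 4.0.16 (R 4.3.3) with filterByExpr at a minimum count of 10, TMM, and a quasi-likelihood fit of condition with the culture number as a block, with Benjamini-Hochberg adjustment over all 9740 genes. An adjusted p of 0.01 was the limit for a call, and the limit on the absolute log2 fold change of 1 was applied afterwards. Standard errors are the log2 fold change over the square root of F. CPM refer to TMM-scaled totals of the tested genes. Ratios within a culture carry exact binomial and rare genes exact Poisson 95% intervals. The mock and NRG1 samples of a culture deviated together from their group means (r across genes 0.91, 0.67 and 0.81, against at most 0.51 between cultures), and the pairing comes from the shared culture. No 2 libraries were alike within sampling noise. On simulated pairs of 9664 genes the edgeR step recovered 33 of 67 genes changed 1.5-fold, 63 of 67 changed 2-fold and 64 of 66 changed 4-fold, with 1 false call. The simulation gave every gene the same dispersion and each changed gene the same fold in all cultures. Real genes can differ in both, so these rates need not hold for them.

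The 10 members were given and the lists were chosen with earlier results of these data known. All members are named. Of each further junction list up to 5 called genes are named, largest change first, or the 2 tested genes with the highest CPM where none was called, and for each called member the 3 genes most alike in level. Promoter letters are from RefSeq (GRCr8), where all 10 members had an entry. Marker lists were used for Schwann, fibroblast, mural, endothelial, perineurial and macrophage cells, and the 8 macrophage markers summed to 3.55 to 10.6 CPM with Ptprc and Adgre1 at 0. Gene lengths were not used here, so CPM were not compared between genes, other than to pick the 2 names above. Alternatives were another normalization, filter, dispersion or limit, DESeq2 1.42.0, no block, and each culture left out. DESeq2 with no block was added after the data had been seen.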

Additional observations from a re-analysis of the deposited data

How the results depend on the processing

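The changes of Cldn19 and Gldn kept their direction and their call under upper quartile or RLE normalization, both other filters, robust dispersion, DESeq2 with the block and an adjusted p of 0.05. They also kept it with each culture left out, where Cldn19 ranged from -1.35 to -1.09 and Gldn from 0.75 to 0.88 on the log2 scale. Without the replicate block edgeR called no gene at all, so that 0 junction genes were higher, 0 lower and 0 past the fold limit, and 0 genes of the 5 lists were called. At an unadjusted p under 0.05 it had 1334 genes, with 0 of the junction genes among them, and the adjusted p was 0.46 for Cldn19 and 0.78 for Gldn. Gja1 then had a log2 fold change of -0.015 and Cadm4 one of -0.00019, both reversed. DESeq2 with no replicate block called 111 genes higher and 67 lower, 1 of the 5 lists and 0 junction genes in either direction or past the fold limit. The biological coefficient of variation was 0.374 without the block and 0.119 with it. With no low-count filter 2 junction genes were higher, Gja1 being added with an adjusted p of 0.0092, with 857 genes lower in all and 14 of the lists called. At an adjusted p of 0.05 the counts were 1124 higher, 1136 lower and 16 of the lists. With the fold limit inside the test 0 junction genes remained past it. With each culture left out in turn, junction genes higher and junction genes past the fold limit were each 1 to 2, genes called higher 408 to 590, genes called lower 253 to 601 and genes of the lists 5 to 9. The extremes came without culture 3 for the low counts of all genes and without culture 1 for the high counts. The log2 fold change of Gjb1 then ranged from -0.18 to 0.19 and that of Cadm4 from -0.079 to 0.19, both crossing 0, and that of Gja1 from 0.26 to 1.21. The cause of the changes without a culture was not tested. Depth limits Cldn1, Cldn5 and Nfasc, which were too rare to test, and Gjb1. No setting moved the median of all genes by more than 0.06 from 0 on the log2 scale.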

Other observations

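Of the claudin family 25 genes had a row, 14 had any count and 3 passed the filter, Cldn19, Cldn12 and Cldn14, while 11 were at 0 in all samples. Cldn14, a claudin best known from the inner ear and kidney, was counted 12, 44 and 153 times in mock samples 1, 2 and 3 and 27, 34 and 78 times in the NRG1 samples. It was higher after NRG1 in culture 1 and lower in cultures 2 and 3, and its log2 fold change of -0.61 (SE, standard error, 0.34) had an adjusted p of 0.21 by edgeR. Of the connexins 18 genes had a row, 12 had any count, 4 passed the filter and 6 were at 0 throughout. Beside Gja1, Gjb1 and Gjc1 the tested connexin was Gjb2, which encodes Cx26. Gjb2 was at 7.88, 8.43 and 6.07 CPM in mock samples 1, 2 and 3 and at 6.27, 6.52 and 2.84 CPM after NRG1, lower in 3 of 3 cultures, with a log2 fold change of -0.60 (SE 0.23, adjusted p = 0.078). Cldn14 and Gjb2 were chosen after their values had been seen.

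Per count of Sox10, the members differed in how far the cultures lay apart. The mock cultures differed 1.65-fold for Cldn19, against 2.79-fold in CPM. For Gja1 they differed 95.2-fold, against 34.5-fold in CPM, and for Tjp1 3.49-fold against 1.22-fold. Gjb1 also lay further apart per count of Sox10, at 3.32-fold against 2.43-fold in CPM. These ratios were computed after the values had been seen and carry no test.

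Over the 6 samples, which come from 3 cultures and are not independent, the levels most like that of Cldn19 were those of Chmp1b, Zfp367 and Plcxd2 (Pearson r of log2 CPM 0.998, 0.997 and 0.994). Those most like Gldn were Kpna2, Ctu1 and Acly (r 0.993, 0.993 and 0.991). None of these 6 genes was called, with adjusted p from 0.016 for Chmp1b to 0.66 for Ctu1 in edgeR's quasi-likelihood test. The values are a description, with no p, chosen as the highest of 9740 genes.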
